A study of Mus musculus with 10 samples.

Results

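The regions described here are the ATAC-seq peaks that lay at the 3' ends of protein-coding genes in F123 mouse embryonic stem cells. A peak was taken when it overlapped the 500 bp on either side of the annotated 3' end of a gene on chromosomes 1 to 19, lay over 2 kb from every annotated transcript start, and had its midpoint outside coding sequence (CDS). Of 179109 ATAC-seq peaks, 172958 lay on these chromosomes and 3787 overlapped a 3' end window. The rule on transcript starts left out 1650 of these, the rule on CDS left out 213 more, and 1924 peaks remained. They were 1.54% of the 125284 autosomal peaks that met the same rules on starts and CDS, and they lay at the 3' ends of 1868 of 20807 genes (8.98%). The member nearest to a start lay 2002 bp from it, the furthest peak left out for its start lay 1997 bp away, and 451 of the peaks left out lay 1 to 2 kb from a start.

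The 3' end of a gene is where the polymerase leaves the coding unit behind. The transcript is cut and polyadenylated a short way after a signal, most often the letters AATAAA, while the polymerase runs on into the flanking DNA before it is released. ATAC-seq marks DNA that the Tn5 transposase can reach, which is usually free of nucleosomes or bound by transcription factors, and H3K4me3 is a histone mark of active and poised promoters.

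F123 is a line of embryonic stem cells from an F1 cross of Mus musculus castaneus and S129/SvJae. The cells were kept with LIF on irradiated CF1 mouse embryonic fibroblasts as feeders, were passaged once without feeders before harvest, and received no treatment. ATAC-seq used 100000 fresh cells and H3K4me3 ChIP-seq used 2000000 fixed cells per sample, each in 2 biological replicates, and each assay is given as 1 list of peaks that stands for both replicates. No value therefore has a spread between replicates, the depth is unknown, and the intervals below are 95% intervals that cover counting error only. Of 8 stem cell markers, all 8 were open at the gene's 5' end (an ATAC-seq peak within 1 kb) and 7 carried H3K4me3 there, Esrrb being the one without. Of 8 fibroblast markers, 5 had both, and Col3a1, Postn and Lum had neither. H3K4me3 fold enrichment ran from 9.74 to 45.2 over the stem cell markers and from 13.9 to 20.4 over the fibroblast markers, and the part of feeder cells in the peaks below was not tested.

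The DNA just before the cut site is shown first, because few genes had a peak over their last base. The lines give the last 30 bases of the gene on its own strand (GRCm38) for 4 pluripotency genes with a member at their 3' end, with every AATAAA in capitals. They are the end of Tet1 (chr10:62804570-62804599, minus strand), a dioxygenase of methylated cytosine, of Klf5 (chr14:99315007-99315036, plus strand), a Krüppel-like transcription factor, of Zfp42 (chr8:43295063-43295092, minus strand), a zinc finger protein and marker of naive cells, and of Dppa2 (chr16:48319694-48319723, plus strand), a chromatin protein of early embryos.
Tet1: ataaAATAAAttttatacttctattttgca
Klf5: ttttgaaAATAAAaagtgcctaaaagatgt
Zfp42: tcaaAATAAAaggaAATAAAacactagaaa
Dppa2: cagacatgaatacagtgtatttaccagtgt
Of these 30 bases, 13.3% were G or C in Tet1, 23.3% in Klf5, 20.0% in Zfp42 and 36.7% in Dppa2. AATAAA was absent from the Dppa2 stretch, as it was from those of Il6st and Tdgf1, the other pluripotency genes with a member. Dppa2 was also the only gene of these 4 whose member peak covered the 3' end base itself. The members at Il6st and Tdgf1 did not cover theirs.

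Some ends were richer in G and C, and an example is shown because a peak did cover it. The line gives the same stretch for the end of Dok3 (chr13:55523231-55523260, minus strand), a docking protein of immune cell signalling. After Dppa2, it held the widest member over a 3' end with at least 50% GC in the 50 bases around it.
Dok3: gtAATAAAgcttgcctatcaacttcccctc
GC over those 50 bases was 52% at Dok3, against a median of 34% over the 13888 genes whose window lay over 2 kb from every start. The member at Dok3 was 1394 bp wide.

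ATAC-seq peaks thinned out sharply at the 3' end base and were more frequent just downstream of it. At marked genes, those whose 5' end had H3K4me3 within 1 kb, a peak covered the 3' end base in 131 of 9434 genes (1.39%, Wilson interval 1.17 to 1.65). The share was 3.68% at 500 bp on the gene side and 5.15% at 500 bp downstream. At the others, called unmarked genes, it was 1.11% at the end base (48 of 4342), 2.36% on the gene side and 2.33% downstream. The mark was read at the outermost annotated 5' end only, and some unmarked genes had H3K4me3 near another of their starts. The dip at the end was present in both groups, and the higher level downstream was seen in the marked genes.

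**Figure D1:**
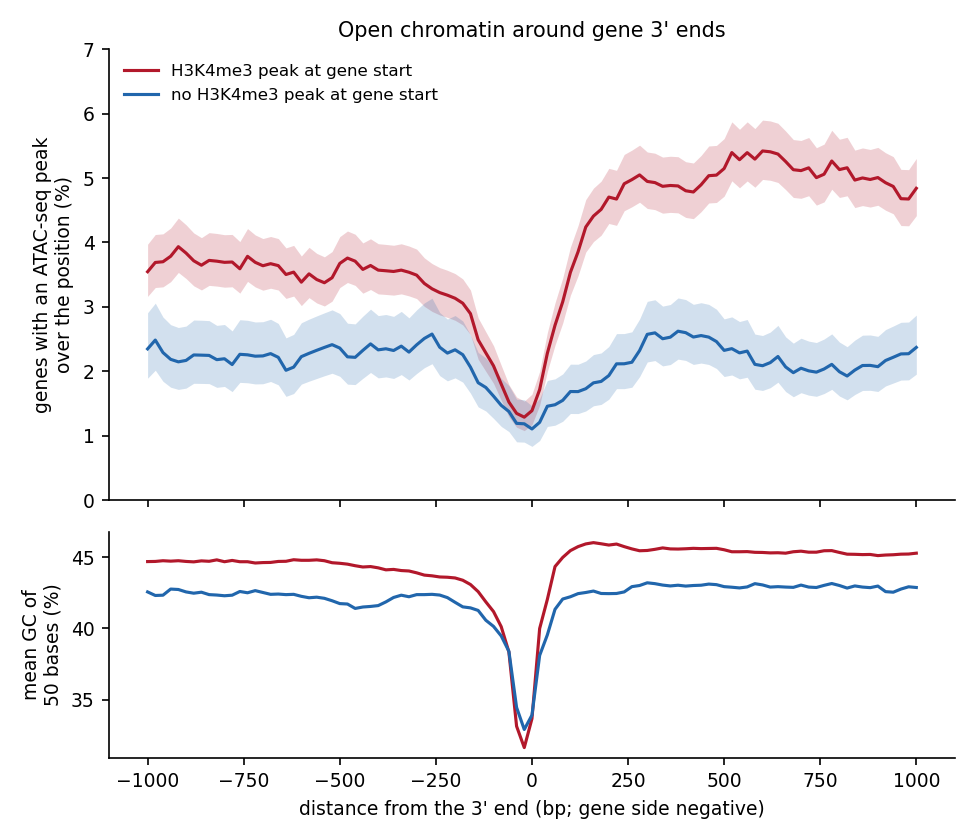
Upper panel: share of genes (%) with an ATAC-seq peak over each position, in steps of 20 bp from 1000 bp before to 1000 bp after the 3' end, for marked genes (red) and unmarked genes (blue), with 95% Wilson intervals as bands. Lower panel: mean GC (%) of the 50 bases around each position. Both shares fall to under 1.4% at the end base, where GC falls to about 34%, and the red line is higher downstream than on the gene side.

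These positions were compared within genes by McNemar's exact test (two-sided), which uses the genes with a peak at one position only. The positions were chosen after the profile was seen. Positions in CDS or within 2 kb of a start were not used, and peaks with the midpoint in CDS stayed left out. Over 13666 genes the end base was covered in 1.30% and the base 500 bp downstream in 4.27%, a difference of -2.96 percentage points (-3.34 to -2.59, exact p = 1.02e-56). The difference was -3.77 points (-4.26 to -3.28) in marked and -1.23 points (-1.74 to -0.716) in unmarked genes. Against the base 500 bp on the gene side it was -2.34 points (exact p = 5.67e-25) in marked and -1.24 points (exact p = 2.33e-05) in unmarked genes. The dip was thus larger than counting error on both sides and in both groups.

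The GC of the end moved with the dip. Ends with at most the median GC of 34% were covered by a peak in 0.268% of 7829 genes, and ends above it in 2.69% of 5837 genes. Among the 860 genes with at least 50% GC around the end, 6.63% had a peak over the end base and 6.05% over the base 500 bp downstream, a difference of 0.581 points (-1.52 to 2.68, exact McNemar p = 0.665). At GC-rich ends, therefore, no dip was detectable. The polyadenylation signal also moved with it: the end was covered in 0.978% of 8382 genes with AATAAA in the last 50 bases and in 1.82% of 5284 genes without. The dip remained past the threshold in both of those groups, at -3.54 and -2.04 points. What links GC to the dip was not tested.

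Downstream of marked genes the frequency of peaks was raised over the first kilobase and then declined. Mean coverage was 3.39% of positions in the last 1 kb of the gene, 4.86% in the first 1 kb after the end, 3.89% from 1 to 5 kb and 3.29% from 5 to 10 kb downstream. The highest value, 5.42%, lay 600 bp after the end. In the unmarked genes the corresponding means were 2.22%, 2.17%, 2.43% and 2.52%, with no such peak of frequency.

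Within genes, the base 500 bp downstream was covered more often than the base 500 bp on the gene side in marked genes, by 1.43 points (0.837 to 2.02, exact McNemar p = 2.42e-06). In unmarked genes the same difference was 0.0267 points (-0.645 to 0.698, exact p = 1). Compared with the base 5500 bp downstream, the base at 500 bp was covered more often by 1.21 points in marked genes (0.542 to 1.87, exact p = 0.000427), and differed by -0.143 points in unmarked genes (-0.846 to 0.560, p = 0.750). The difference between both groups of genes in these positional contrasts was not tested.

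**Figure D2:**
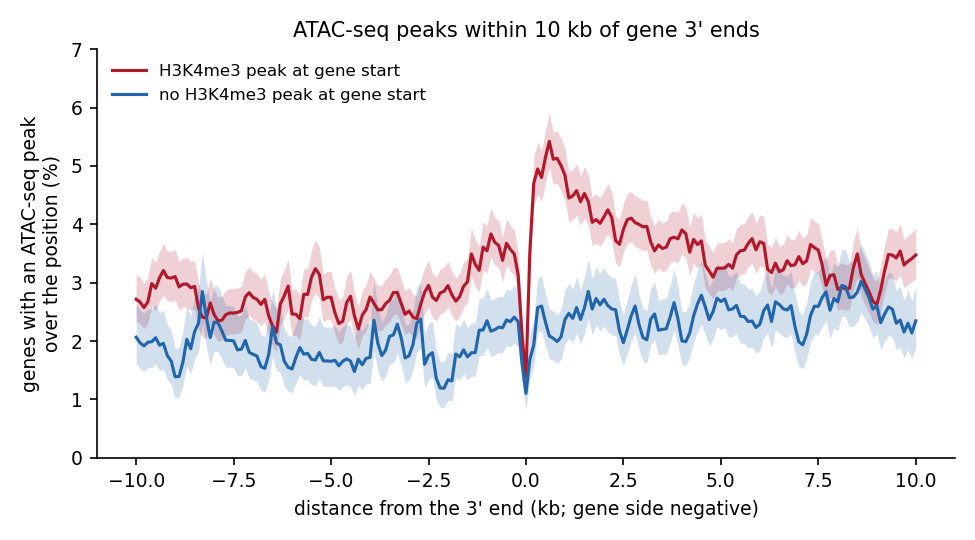
Share of genes (%) with an ATAC-seq peak over each position from 10 kb before to 10 kb after the 3' end, for marked genes (red) and unmarked genes (blue), with 95% Wilson intervals as bands. The marked genes rise to 5.42% at 600 bp downstream and decline over the following kilobases, while the unmarked genes stay between 1.11% and 3.02%.

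Over whole windows, 3' ends carried peaks more often than the genome at large but not more often than their own downstream flanks. Of the 13888 windows over 2 kb from every start, 1720 (12.4%) held a member, against 7.23% of 2063479 tiles of 1001 bp laid over the autosomes under the same rules, a difference of 5.15 points (Newcombe interval 4.62 to 5.71). For 10395 genes both the 3' end window and an equal window 5 kb further downstream met the rule on starts. A peak lay in 1228 of the 3' end windows (11.8%) and in 1310 of the downstream windows (12.6%), and 221 genes had a peak in both. The difference of -0.789 points (-1.65 to 0.0742) did not pass the exact McNemar test (p = 0.0768), and the 3' end share was the higher one on 6 of 19 chromosomes.

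The split by H3K4me3 separated the genes. Marked genes had a member at the 3' end in 1359 of 9480 windows over 2 kb from starts (14.3%), and unmarked genes in 361 of 4408 (8.19%), 6.15 points less (5.05 to 7.20). Among the genes with both windows usable, the marked genes had a peak in 13.8% of 3' end windows and in 13.7% of downstream windows (n = 6981), a difference of 0.100 points (-1.02 to 1.22, exact McNemar p = 0.880). The unmarked genes had a peak in 7.82% of 3' end and in 10.4% of downstream windows (n = 3414), a difference of -2.61 points (-3.91 to -1.30, exact p = 0.000108). The 3' ends of unmarked genes thus held peaks less often than the window 5 kb downstream, on 15 of 19 chromosomes, while against a window 5 kb upstream in genes over 8 kb long the difference was 0.437 points (-1.09 to 1.96).

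**Figure D3:**
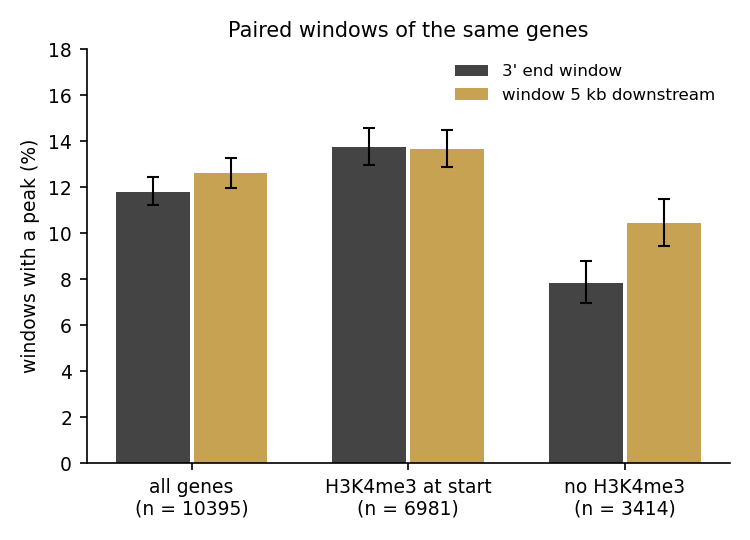
Share of windows (%) with an ATAC-seq peak at the 3' end (dark) and 5 kb further downstream (light) of the same genes, for all genes, marked genes and unmarked genes, with 95% Wilson intervals as error bars. The bars of the marked genes are level at 13.8% and 13.7%, and those of the unmarked genes stand at 7.82% and 10.4%.

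Marked genes exceeded unmarked genes by 5.95 points at the 3' end (4.71 to 7.14) and also 5 kb downstream, by 3.24 points (1.91 to 4.52). The share was higher in marked genes on 19 of 19 chromosomes at the 3' end and on 13 of 19 downstream. The excess of the 3' end over the flank differed between marked and unmarked genes by 2.71 points (0.991 to 4.42). This last difference depended on the control window: it was 0.504 points (-1.19 to 2.20) with the control 10 kb downstream, 0.563 points (-1.08 to 2.21) with the control at 2.5 kb, and 1.35 points (-0.822 to 3.52) for windows free of CDS. Against a window 5 kb upstream inside genes over 8 kb long, the 3' end held peaks more often, by 1.64 points (0.729 to 2.56), so that the sign of the comparison turned with the side of the control.

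Other properties of the windows moved with this contrast. CDS lay in 39.3% of 3' end windows and 5.01% of downstream windows of unmarked genes, against 20.99% and 9.30% in marked genes. Soft-masked repeats took up 27.0% of the bases at the 3' end and 45.2% downstream in unmarked genes, and 20.6% and 31.5% in marked genes. Unmarked genes were shorter, with a median of 15.1 kb against 35.4 kb. With the rule on CDS lifted the deficit of the unmarked genes was -1.93 points (-3.28 to -0.588), and with at most 50% repeats in both windows it was -3.54 points (-5.36 to -1.72).

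The share of 3' end windows with a peak varied with the distance to H3K4me3 of any kind, the peak at the gene's own start included. Of 541 windows that themselves overlapped an H3K4me3 peak, 278 (51.4%) held a member. The share was 12.4% with the nearest H3K4me3 peak under 5 kb away, 14.8% at 5 to 20 kb, 8.24% at 20 to 100 kb and 3.78% beyond 100 kb. Within these classes, the difference between marked and unmarked genes left out 0 at 5 to 20 kb only (5.504 points, 3.06 to 7.70). It was 0.551 points (-9.88 to 11.03) where the window overlapped H3K4me3 and 0.298 points (-1.61 to 2.86) beyond 100 kb. Of the windows over 100 kb from H3K4me3, 399 belonged to marked and 1374 to unmarked genes.

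**Figure D4:**
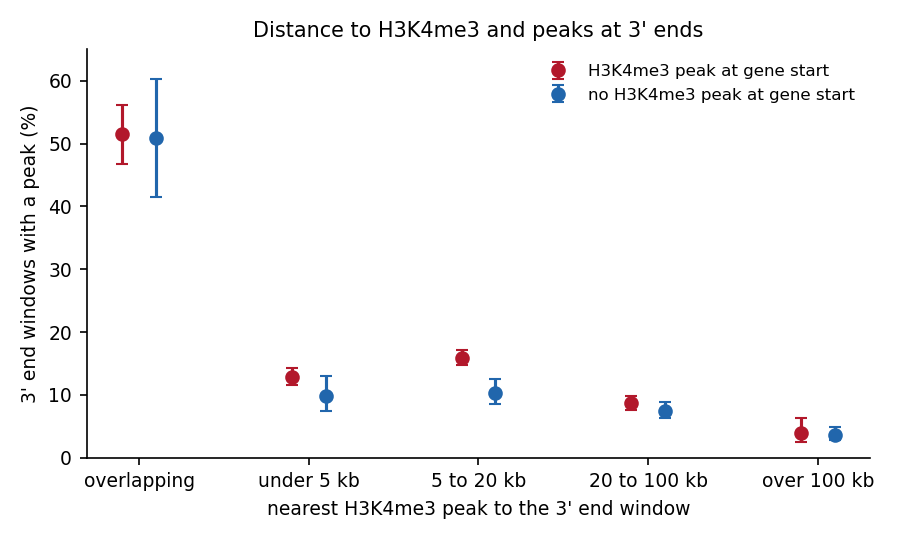
Share of 3' end windows (%) with a member peak by distance to the nearest H3K4me3 peak, for marked genes (red) and unmarked genes (blue), with 95% Wilson intervals. Windows that overlap H3K4me3 stand at about 51% in both groups, and windows over 100 kb from H3K4me3 at about 4%.

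The strength of the H3K4me3 peak at the start showed little relation to the 3' end. In 4 equal groups of marked genes, from the weakest to the strongest fold enrichment, 13.6%, 11.8%, 13.9% and 15.8% of 3' end windows held a peak, and only the second and the fourth had intervals that did not overlap. By width of the start peak, the widest of 4 groups (2910 to 9697 bp) held peaks in 17.6% (15.9 to 19.5) and the others in 12.4% to 12.7%. In each of these groups the 3' end and the downstream window differed by less than counting error. By gene length, the longest of 4 groups (from 68144 bp) had 8.93% at the 3' end and 10.7% downstream, a difference of -1.77 points (-3.36 to -0.182).

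Single genes show what the windows hold. Among 36 pluripotency genes, 27 had a window over 2 kb from every start and 6 of these held a member: Tet1, Il6st, Klf5, Dppa2, Zfp42 and Tdgf1. At Tdgf1, the gene of the Nodal co-receptor Cripto, the peak was 1723 bp wide and began just after the end (chr9:110937838-110939560). At Zfp42 it was 835 bp wide with its midpoint 450 bp downstream (chr8:43294196-43295030), and at Dppa2 it was 1399 bp wide with its midpoint 644 bp downstream (chr16:48319668-48321066). None of these 3 overlapped an H3K4me3 peak. The peaks at Tet1 (360 bp) and Klf5 (118 bp) also lay downstream, at 396 and 266 bp, while the 188 bp peak at Il6st, which encodes the signalling subunit of the LIF receptor, lay in the 3' UTR at -414 bp relative to the end.

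Pou5f1, Sox2 and Lin28a had windows that reached within 2 kb of a start, and no member. Nanog, Klf4, Tfcp2l1, Sall4 and Stat3 had a window over 2 kb from every start and still no member. For the list as a whole, 6 of 27 windows held a member against the 12.4% of all such windows, and 8 of the 22 genes with both windows usable had a peak 5 kb downstream, against 12.6% of all paired genes.

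Among 25 lineage regulators, which stem cells keep silent or poised, 21 had a window over 2 kb from starts and 3 of these held members, beside the 12.4% of all such windows and 14.3% in marked genes, to which 24 of the 25 belong. Hand1, a transcription factor of heart and trophoblast, had 1 peak of 140 bp downstream of its end and 1 of 116 bp in its 3' UTR, both under an H3K4me3 peak of 12.5-fold enrichment. Tfap2a, a regulator of neural crest and epidermis, had a 527 bp peak 612 bp downstream, and Myod1, the muscle regulator, a 225 bp peak over the end itself. Among 20 genes listed as ubiquitously expressed (Pgk2, a testis gene, was placed there in error), 6 had such a window and 1 of these, at Ppia, the cyclophilin A gene, held a member, again beside 12.4% of all windows. Its peak was 328 bp wide and lay 633 bp downstream.

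The 10 widest members ran from 1399 to 2176 bp. The widest, 2176 bp, spanned the meeting point of Nfe2 and Hnrnpa1, where 2 genes end towards each other (chr15:103247140-103249315). Next came Hnrnpa2b1 (1889 bp), which like Hnrnpa1 encodes a heterogeneous nuclear ribonucleoprotein that binds RNA, and Tdgf1. Ptma, the prothymosin alpha gene, had 1616 bp, Mat2a, which makes S-adenosylmethionine, 1610 bp, and Ccnl1, a cyclin linked to splicing, 1535 bp. Snx5 (1462 bp), Clcn2 (1444 bp), Wdtc1 (1430 bp) and Dppa2 (1399 bp) completed the 10 widest.

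Of these 10, the members at Nfe2 and Wdtc1 had their midpoints on the gene side, at -16 and -781 bp, and the other 8 lay 644 to 1167 bp downstream. Of the 49 members of at least 1000 bp, 27 (55.1%, 41.3 to 68.2) had their midpoint downstream, beside 59.5% of all members. All 10 genes carried H3K4me3 at the start, with fold enrichments from 3.29 at Dppa2 to 58.3 at Ptma, but of the 49 members 37 (75.5%) lay at marked genes, beside 78.8% of all members. These 49 were 2.55% of members, against 1.46% of the 1369 peaks in downstream windows, a difference of 1.09 points (0.0887 to 2.04). Here and below, the downstream peaks were non-members from the 10395 paired genes only, while the members came from all genes. Peaks of at least 1000 bp lay at the 3' end in 37 and downstream in 21 of the 10395 paired genes (exact McNemar p = 0.0479, a comparison chosen after the widths were seen). In marked genes the counts were 29 and 20 (exact p = 0.253) and in unmarked genes 8 and 1 (exact p = 0.0391), and for peaks of at least 500 bp the difference between members and downstream peaks was 1.65 points (-1.10 to 4.33).

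Most members were narrow and single. Their width ran from 73 to 2176 bp with a median of 255 bp, beside medians of 253 bp for peaks in the downstream windows and 239 bp for the other 123360 distal peaks. A wide peak meets a fixed window more easily, so the rule itself favours wide peaks over the other distal peaks. A single member lay at 1678 genes, 183 genes had 2 and 7 had 3. The midpoint lay downstream of the end for 59.5% of members and on the gene side for 40.5%, 9.82% covered the end base, and the position ran from -1144 to 1167 bp with a median of 158 bp. The rule on CDS had left out 213 peaks, and CDS of the gene itself lies on the gene side. The split by side was not counted without that rule. By annotation 36.5% had their midpoint in a 3' UTR, 12.1% in an intron, 50.1% between genes and 1.35% in another exon.

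Psen2, 4930539E08Rik, Ubxn2a, Mtmr12 and Prpf38b, in order of the summed width of their members, were 5 of the 7 genes with 3 members. The rest of the 7 are not described here. At Psen2, a presenilin gene, peaks of 783, 124 and 155 bp lay in a row across the end (chr1:180225922-180227285). At Ubxn2a they were 348, 126 and 462 bp, and at Prpf38b, named after a splicing factor, 333, 285 and 140 bp wide. At Mtmr12 they measured 134, 113 and 688 bp, and at 4930539E08Rik 750, 175 and 103 bp. In each of these 5 genes the row had 1 peak on the gene side of the end and 2 downstream.

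Members overlapped H3K4me3 more often than distal peaks elsewhere. This held for 289 of 1924 (15.0%), against 8.95% of the other distal peaks, a difference of 6.08 points (4.54 to 7.75). Peaks in the downstream windows did so in 14.6%, only 0.412 points less (-2.08 to 2.84), and marked and unmarked genes differed by 0.711 points (-3.41 to 4.33). Members were wider than the other distal peaks, and the part of width in the first difference was not tested. The overlapped H3K4me3 peak was the one at the gene's own start in 22 cases and another peak in 267. The median fold enrichment was 29.4 for the former and 6.97 for the latter.

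The 22 lay at short genes, with a median length of 2.84 kb, where the mark at the start ran on as far as the member. Among the strongest were those at Mcl1, a survival factor of the BCL2 family, with a fold enrichment of 62.3 over a 1372 bp member, and at Atf4, a stress response transcription factor, with 54.7. Fbxl14, an F-box gene, had 43.8, and both of its members lay under that one H3K4me3 peak.

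Sequence matches were read in the 200 bp around each midpoint, on both strands, for 9 motifs spelled as letters. A match is a description of the letters and not evidence of a bound factor, and matches of different motifs could overlap. The core of CTCF, the insulator protein that anchors chromatin loops, was searched as CNAGGNGGC, and 160 members (8.32%) held it, against 5.96% of other distal peaks (2.36 points, 1.196 to 3.68) and 8.55% of peaks in downstream windows (-0.230 points, -2.20 to 1.67). Stretches of 30 bases from 3 of the widest members with a match are shown with the match in capitals, on the strand of the match (GRCm38). They lie at Dok3 (chr13:55523306-55523335, minus strand, 3' UTR), Capn11, a calpain gene (chr17:45630271-45630300, plus strand, 3' UTR), and Gm10037 (chr13:67844633-67844662, minus strand, between genes).
Dok3: cagggacaagCCAGGTGGCccggggaggag
Capn11: agagggcgggCTAGGAGGCgggtgtgagtt
Gm10037: ccaccctgctCAAGGTGGCggtggtggggg
Relative to the end, the matches lay at -90 bp at Dok3 and -81 bp at Capn11, and at 613 bp at Gm10037.

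Whole member peaks with the same core are shown for 1 marked and 1 unmarked gene, since both lie outside annotated exons. The peak at Mfge8, a secreted milk fat globule protein gene, has its midpoint 175 bp downstream of the end and is 285 bp long (chr7:79133451-79133735, plus strand of GRCm38, match in capitals).
Mfge8: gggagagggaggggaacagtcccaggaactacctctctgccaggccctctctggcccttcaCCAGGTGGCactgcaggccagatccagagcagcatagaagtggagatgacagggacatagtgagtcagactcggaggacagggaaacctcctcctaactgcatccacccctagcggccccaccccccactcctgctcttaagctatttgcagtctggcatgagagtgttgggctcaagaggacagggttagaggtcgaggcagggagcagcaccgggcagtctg
The peak at Cldn14, a tight junction claudin gene without H3K4me3 at its start, has its midpoint 488 bp downstream and is 234 bp long (chr16:93918426-93918659, plus strand of GRCm38).
Cldn14: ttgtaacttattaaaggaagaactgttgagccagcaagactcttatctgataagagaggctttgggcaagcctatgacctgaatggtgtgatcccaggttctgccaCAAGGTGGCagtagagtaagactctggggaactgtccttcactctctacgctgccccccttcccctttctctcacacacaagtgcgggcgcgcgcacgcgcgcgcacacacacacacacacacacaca
GC in the 200 bp around the midpoint was 58.5% at Mfge8 and 56% at Cldn14, beside medians of 53% over members, 51.5% over peaks in downstream windows and 51% over other distal peaks.

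Of the other motifs, the GC box of the Sp1 family (GGGCGG) was more frequent in members and the Sox motif (ACAATG) less so, against both other sets. The GC box was in 13.2% of members, 10.4% of other distal peaks (2.80 points, 1.35 to 4.39) and 10.2% of downstream peaks (2.92 points, 0.684 to 5.10). The Sox motif, of the family of Sox2, was in 7.80%, 10.6% (-2.77 points, -3.90 to -1.47) and 10.2% (-2.36 points, -4.40 to -0.390). The higher GC of members moved with both, and its part was not tested.

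The octamer of Pou5f1 (ATGCAAAT) was in 2.34% of members and 3.50% of other distal peaks (-1.16 points, -1.75 to -0.374), but its difference from downstream peaks, -0.948 points, had an interval that held 0 (-2.18 to 0.182). For the motifs of the Esrrb, Klf, Tead and AP-1 families (CAAGGTCA for Esrrb, GGGTGTGG for Klf, GGAATG for Tead and TGANTCA for AP-1) and for AATAAA, the intervals of both differences held 0. Between members of marked and unmarked genes, only the Tead motif differed among the 10 features compared, with 12.1% against 18.1% (-6.00 points, -10.3 to -2.15). These intervals were not adjusted for the number of features.

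**Figure D5:**
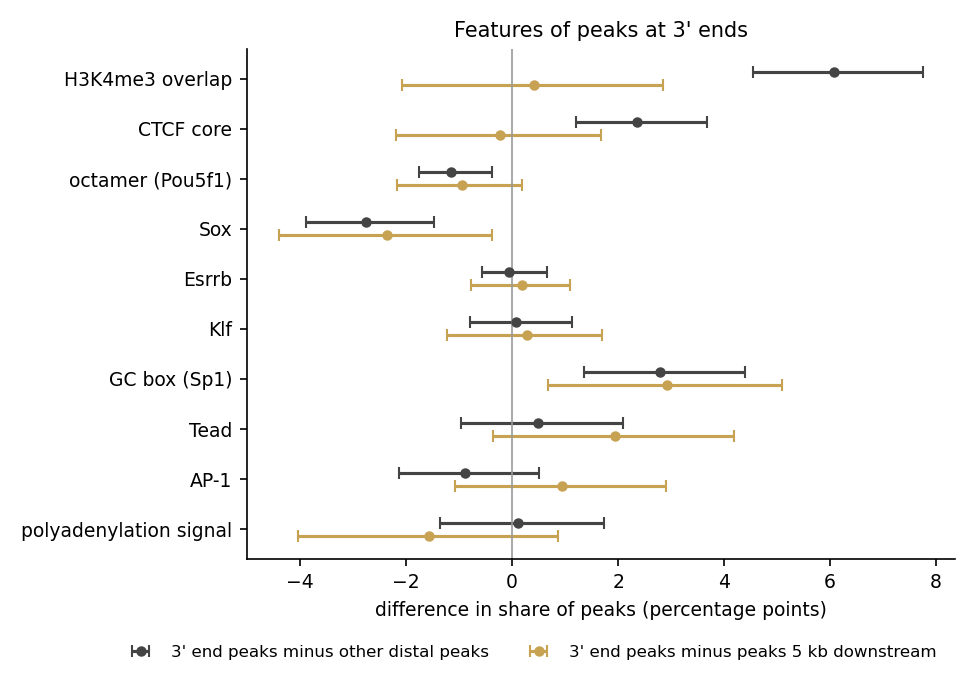
Difference in the share of peaks (percentage points) that overlap H3K4me3 or hold each of 9 motifs, between members and other distal peaks (dark) and between members and peaks in the downstream windows (light), with 95% Newcombe intervals. H3K4me3 overlap and the CTCF core are higher against other distal peaks only, the GC box is higher and the Sox motif lower against both.

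Genes that end towards each other held peaks there more often. Of 965 windows with the 3' end of another coding gene on the opposite strand within 1000 bp, 179 (18.6%) held a member, against 11.9% of the other 12923, a difference of 6.63 points (4.23 to 9.26). The difference was 5.94 points (3.21 to 8.93) in marked and 4.87 points (0.565 to 10.8) in unmarked genes. Windows with centres within 1000 bp of each other overlap, so 1 peak can count for both genes. These intervals take the windows as independent and are therefore too narrow. Members that lay in the windows of more than 1 gene numbered 102 (5.30%). Windows with AATAAA in the last 50 bases held a member in 12.9%, and those without in 11.6% (1.30 points, 0.177 to 2.40).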

How the data were processed

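ATAC-seq and H3K4me3 ChIP-seq were each measured in 2 biological replicates of F123 cells. The PLAC-seq and ChIP input samples were not used here. The authors aligned ATAC-seq reads to mm10 with Bowtie 1.1.2, moved read ends by 4 bp for the Tn5 insertion, called peaks with MACS2 2.1.1.20160309 per replicate and on pooled reads, and kept with bedtools 2.27.1 the pooled peaks found in both replicates. This deposited list holds positions only. For H3K4me3, the authors ran ENCODE's uniform pipeline (histone marks, default settings). Its deposited columns hold positions, a display score, the fold enrichment (a ratio over background), and −log10 of p and q. Its aligner and threshold are not given in the sources used here. Neither list holds counts, so depth is unknown. Tn5 prefers certain bases and peak calling misses weak sites, so an absent peak is not closed chromatin. The paper's p-value cutoff for calling ATAC-seq peaks was lenient, so weak or false peaks can be among those found in both replicates. With positions only, the ATAC-seq peaks could not be sorted by strength.

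Genes, transcripts and CDS were taken from GENCODE M21 and sequence from GRCm38.p6, whose chromosome lengths hold all peaks. A window is 1001 bp centred on the last base of the gene. Windows of the same gene were compared by a two-sided exact McNemar test with a Wald interval, and other shares with Wilson and Newcombe intervals at 95%. Genes are not replicates, neighbouring windows can share a peak, and the p-values measure spread over genes only. The member count was checked with bedtools 2.31.1, which gave 1924 as well. The window comparison was tested on simulated peaks placed at random, with the rule on CDS lifted. That test does not cover the clustering of real peaks or the rule on CDS. The members and gene lists were chosen with earlier results of these data known. Genes were named from 3 lists (pluripotency, lineage, ubiquitous), the 10 widest members and the 5 members under the strongest H3K4me3. Also named were 5 of the 7 genes tied for most members. Sequences came from the widest members with a CTCF core, from members of at most 300 bases with that core outside annotated exons, and, chosen after seeing the data, from ends of pluripotency genes with a member and a GC-rich end. Some members that these rules name are not reported here. Alternatives varied the windows, overlap, distance to starts, CDS rule, control window, mark and gene set. Analyses ran in Python 3.11.15 with scipy 1.17.1, pandas 2.3.3 and numpy 2.4.6, and figures in matplotlib 3.10.9.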

Additional observations from a re-analysis of the deposited data

Results flagged for a closer look

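The excess of 3' end windows over windows 5 kb downstream differed between genes with and without H3K4me3 at the start by 2.71 percentage points (2.707 before rounding, 0.991 to 4.42), by a test of the difference itself. The 3' end was lower than the flank by 2.61 points in the unmarked genes and the marked genes differed by 0.100 points. CDS, repeats and gene length moved with the split, and their part was not tested.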

How the results depend on the processing

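No paired analysis was possible because each list stands for both replicates of its assay, and for the same reason no replicate could be left out. Differences below are in percentage points. The excess of marked over unmarked genes at the 3' end kept its direction and its interval left out 0 under all 24 alternatives (3.16 to 9.84). The excess of members over other distal peaks did likewise under 3 alternatives each, for H3K4me3 overlap (5.12 to 6.30) and the CTCF core (3.12 to 4.17). Against downstream peaks, where no alternative was run, both intervals held 0. The deficit of unmarked genes held under 23 of 24 (to -3.54) and was 0.437 against a window 5 kb upstream in genes over 8 kb.

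The comparison of all genes, not past the threshold as reported, passed it with the midpoint inside the window (-0.789), 50% of the peak inside (-0.799), starts over 1 kb (-0.782) or 5 kb away (-1.88), X and Y added (-0.859), controls at 10 kb (-1.25), 2.5 kb (-1.25) or outside coding genes (-1.69), one gene kept of overlapping windows (-1.001), at most 50% repeats (-1.12) and, added after seeing the data, no CDS base (-1.50), and turned to 1.64 against the upstream window. Marked genes, at 0.100, turned to -0.201, -0.215, -1.32 (starts over 5 kb away), -1.09, -1.07, -1.02, -0.220, -0.236 and -1.12 in the same order without 1 kb and X and Y, to -0.122 with any start of the gene and -0.0921 with an ATAC-seq peak in place of H3K4me3, and passed at 2.11 against the upstream window. None of the negative values passed.

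The difference in excess between marked and unmarked genes was positive under all 24 alternatives, but its interval held 0 with starts over 5 kb away (1.89), controls at 10 kb (0.504), 2.5 kb (0.563) or upstream (1.67), and no CDS base (1.35). The number of members was 1166 for 250 bp and 3410 for 1000 bp on either side, 943 for the widest 50% of peaks and 1100 for starts over 5 kb away. Median GC of members exceeded that of other distal peaks by 2 points, by 1.48 over whole peaks and by 1.50 for members downstream. The dip at the end base held under 6 of 7 alternatives added after seeing the data (-3.16 to -2.20) and was 0.581 at ends with at least 50% GC. No rows overlap and every gene had a basic or well-supported transcript, so merging and that gene filter changed nothing by construction. The cause of these changes was not tested.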
